A study of Rattus norvegicus with 24 samples.

Results

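Infarcted rat hearts treated with thyroxine (MI+T4) were compared with sham-operated hearts (Sham), to find what still differed from Sham under the hormone and what differed only under it. All rats were female Sprague-Dawley rats aged 3 months. In the MI and MI+T4 groups the left descending coronary artery was ligated, while Sham rats had the operation without ligation. MI+T4 rats carried a subcutaneous T4 pellet of 3.3 mg with a 60-day release, placed right after infarction, whereas Sham and MI rats carried a placebo pellet. RNA came from the non-infarcted left ventricle 4 weeks after surgery, and rats with small infarcts had been left out by the study. There was no Sham group given T4, so the hormone and the infarct cannot be told apart in MI+T4 vs. Sham alone. The comparison used 16 of the 24 arrays, chosen by their labels, from 4 MI+T4 rats (replicates 5 to 8) and 4 Sham rats (replicates 1 to 4). Each rat was hybridised to 2 technical arrays, which were averaged. The 4 MI rats (replicates 5 to 8, different animals) entered as a group of their own to show which differences were also present without T4.

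Thyroid hormone enters cells through membrane transporters, is converted to its active form by deiodinases and binds nuclear receptors that turn target genes on or off. In rodent heart its best known targets are the myosin heavy chains, the sarcoplasmic reticulum calcium pump and its inhibitor, and several potassium and pacemaker channels. After a large infarct the surviving ventricle remodels: muscle cells enlarge and re-express fetal and wall-stress genes such as the natriuretic peptides, fibroblasts lay down matrix, and genes of mitochondrial energy metabolism commonly decline.

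Values are the deposited levels on a log2 scale. Array medians lay between 7.81 and 7.82, and each of the 24 arrays correlated best with its technical mate. The number of animals limits the precision. Of 14 genes measured for the cardiac muscle list, 0 passed the test between MI+T4 and Sham. Their summed log2 level lay between 19.26 and 19.37 in the rats of both groups. The 14 include Dbi, which is not a muscle marker and was matched to titin through a synonym, as no probe carried the titin symbol. The cardiac muscle label was thus met by each library. Macrophage markers, in contrast, were uneven within Sham. Spp1, osteopontin, was at 9.62 and 9.60 in Sham replicates 1 and 2 but at 12.52 and 13.81 in replicates 3 and 4, and was at 9.96, 9.80, 11.02 and 9.54 in the MI+T4 rats. Over the 15 macrophage markers the summed level ranged from 13.93 to 15.80 in Sham and from 14.15 to 15.21 in MI+T4, and 0 passed. In such bulk tissue fewer cells of a type and less RNA per cell cannot be told apart.

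Calls were made by 2 rules, since the technical arrays of a rat are not independent animals. With 1 mean per rat, limma called 1 of 22523 probes (0.00444%) at an adjusted p under 0.05, for Tnfrsf12a, and 1728 had an unadjusted p under 0.05. With both arrays of each rat and a common within-rat correlation, limma called 283 probes (1.26%), 162 higher and 121 lower in MI+T4. The study's methods also used a common correlation, but dropped genes detected on no array and applied a moderated F-statistic. Here all probes were kept and each comparison was tested by itself, so the counts are not those of the study. The fit with both arrays assumed a within-rat correlation of 0.243, whereas the median among the 283 called probes was 0.746, so their p-values can be too small. On simulated arrays that fit also made many more false calls than its threshold allows, while the fit on rat means stayed close to it. In what follows, a gene that "rose", "fell" or "passed" did so by the fit with both arrays, and the adjusted p on rat means is given as a second value. Apart from Tnfrsf12a no such call passed on rat means. Of the 283, 206 did not overlap between the 4 MI+T4 and the 4 Sham rats, and 33 differed by 1.5-fold or more, 26 higher and 7 lower.

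MI+T4 rats did not deviate from Sham to the same extent. The median difference of the called probes from the Sham mean, signed in the called direction, was 0.33, 0.32, 0.43 and 0.21 on the log2 scale in MI+T4 replicates 5, 6, 7 and 8. The count of 283 fell to 97 when MI+T4 replicate 7 was left out and rose to 585 when MI+T4 replicate 8 was. It was 150 to 181 without any 1 Sham rat, 179 without treated replicate 5 and 182 without treated replicate 6. Of 94 called genes singled out by the naming rule, 34 kept the call without each of the 12 rats in turn. Those 34 carry most of the account, and for most others the rats that the call needed, or their number, are given. A gene without such a statement is not thereby shown to keep its call.

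Part of what separated treated infarcted hearts from Sham was also present in untreated infarcted hearts. Of the 283 probes, 165 also passed in MI vs. Sham in the same direction, 91 higher and 74 lower, and 0 passed in the opposite direction. These comparisons share the Sham rats, so the counts are a description. The 165 became 61 without MI+T4 replicate 7 and 314 without replicate 8, and 90 to 103 without Sham replicate 2, 3 or 4, MI replicate 8 or MI+T4 replicate 5. Against the 118 that passed under T4 alone, the shared probes were the larger class in the full fit (165), but they numbered 139 against 231 without MI replicate 5, 103 against 230 without MI replicate 8, and 152 against 146 with the 3 comparisons adjusted together. Among the 91, the median log2 difference from Sham was 0.41 in MI+T4 and 0.43 in MI, and the MI+T4 mean lay beyond the MI mean in 39. Among the 74, the medians were -0.31 and -0.34, and the MI+T4 mean lay beyond the MI mean in 33. A further 649 probes passed in MI vs. Sham and not in MI+T4 vs. Sham. With 1 probe per gene, 134 of 13337 genes (1.00%) were higher and 102 (0.765%) lower in MI+T4, against 347 (2.60%) higher and 322 (2.41%) lower in MI.

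The wall-stress program remained raised under T4. Of its 17 measured members, 6 rose in MI+T4 vs. Sham, 35.3% against the 1.00% of all genes, and 0 fell. In 8 of the 17 the MI+T4 rats all lay above the Sham rats, as in 2.71% of genes. Its median log2 difference was 0.26, against -0.00094 over all genes, and 11 of the 17 rose in MI vs. Sham. Without any 1 rat, 5 to 8 members were called. The list was chosen with the MI results known.

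Tnfrsf12a, the receptor of the cytokine TWEAK, had the smallest p of all probes. Its level was 9.51, 9.75, 9.51 and 9.48 in the Sham rats and 10.53, 10.26, 10.37 and 10.59 in the MI+T4 rats. The lowest treated rat thus lay well above the highest Sham rat. The means were 9.56 ± 0.13 and 10.44 ± 0.15 (SD, n = 4 each), a 1.83-fold rise (log2 0.88, 95% interval 0.67 to 1.08, adjusted p = 5.58e-08 with both arrays and 0.0131 on rat means). The call on rat means was lost without Sham replicate 1, 3 or 4 or MI+T4 replicate 5 or 7, with adjusted p between 0.0504 and 0.103. In the MI rats it was at 10.27, 10, 10.30 and 10.39, with replicate 6 below the treated range and the others in its lower part. MI+T4 vs. MI did not pass (adjusted p = 0.476).

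The B-type natriuretic peptide Nppb, a peptide hormone secreted by stretched ventricular muscle, was at 13.91, 14.11, 13.71 and 13.45 in Sham and at 15.07, 14.07, 15.07 and 15.39 in MI+T4. It rose 2.15-fold (log2 1.11, adjusted p = 0.000409 with both arrays and 0.245 on rat means). Treated replicate 6 lay within the Sham range, while the other treated rats lay above it. Rcan1, an inhibitor of calcineurin that calcineurin signaling itself induces, was at 12.84, 13.35, 13.18 and 12.53 in Sham and at 13.74, 13.78, 13.56 and 13.80 in MI+T4. The treated rats all lay above Sham, a 1.68-fold rise (adjusted p = 0.000835 and 0.245 on rat means). Pdlim1, a PDZ and LIM domain protein that binds alpha-actinin, rose 1.24-fold without overlap (adjusted p = 0.00464 and 0.222 on rat means). Myot, myotilin of the Z disc, rose 1.28-fold (adjusted p = 0.0368 and 0.48 on rat means, passing only with Sham replicates 1, 2 and 4 and MI+T4 replicates 5, 7 and 8 all present).

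Skeletal alpha-actin Acta1, a fetal actin of the ventricle, did not pass in MI+T4 vs. Sham. It was at 14.11, 14.98, 14.37 and 14.46 in Sham and at 14.90, 14.50, 14.98 and 14.55 in MI+T4 (adjusted p = 0.579), and at 15.55, 14.86, 14.89 and 15.43 in MI. It passed in MI vs. Sham (log2 0.71, adjusted p = 0.0049), but MI+T4 vs. MI itself did not pass (log2 -0.45, adjusted p = 0.322 and 0.889 on rat means), and the rats of those groups overlapped. Ankrd1, a stretch-responsive ankyrin-repeat protein, was between 16.04 and 16.26 in the Sham and MI+T4 rats, close to the highest value on any array (16.47), where a difference may be compressed.

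The atrial natriuretic peptide Nppa, the atrial counterpart of Nppb, had the largest fold among the genes singled out. It was at 13.92, 14.22, 12.41 and 12.13 in Sham and at 16.08, 14.34, 16.33 and 14.22 in MI+T4. Treated replicates 5 and 7 were high, whereas replicates 6 and 8 lay close to Sham replicates 1 and 2, and replicate 8 equalled Sham replicate 2 to 2 decimals. The rise was 4.21-fold (log2 2.07, 95% interval 0.81 to 3.33, adjusted p = 0.00486 and 0.377 on rat means), and the MI rats were at 15.84, 14.89, 14.86 and 16.12.

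Of the 8 atrial markers measured, Myl7 and Mybphl, picked after their values were seen, had the same high rats as Nppa. Myl7, the atrial myosin light chain, was at 14.28, 14.19, 9.29 and 9.68 in Sham and at 16.14, 12.44, 15.52 and 11.12 in MI+T4 (adjusted p = 0.469). Mybphl, an atrial myosin-binding protein, was at 8.54, 8.59, 7.41 and 7.52 in Sham and at 10.32, 7.76, 9.62 and 7.56 in MI+T4 (adjusted p = 0.448). In both genes the high treated rats were 5 and 7 and the high Sham rats were 1 and 2, as for Nppa. Nr2f1 and Nr2f2, transcription factors of the list, did not have that order and were highest in Sham replicate 4 and MI+T4 replicate 8 within their groups, and Bmp10, an atrial growth factor, was lowest in treated replicate 7 (7.89). The 8 measured atrial markers summed to a log2 level of 13.10 to 14.83 in Sham and 13.71 to 16.39 in MI+T4, with 1 marker called. Tbx5, a transcription factor of the list, lay below the median of all probes and was highest in treated replicates 5 and 7 (7.66 and 7.68). Dkk3, another member, was highest in Sham replicate 1 (9.2) and MI+T4 replicate 7 (9.7). The part of atrial muscle in the Nppa difference was not tested. The called marker was Pam, the enzyme that amidates peptide hormones, with 12.82, 12.76, 12.72 and 12.59 in Sham and 13.38, 13.09, 13.58 and 13.16 in MI+T4. Its highest rats were the same as for Nppa and Myl7, Sham replicates 1 and 2 and MI+T4 replicates 5 and 7, though its Sham rats lay close together. Unlike Myl7, Pam did not overlap between the groups, and it rose 1.5-fold (adjusted p = 0.000258 and 0.179 on rat means).

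**Figure D1:**
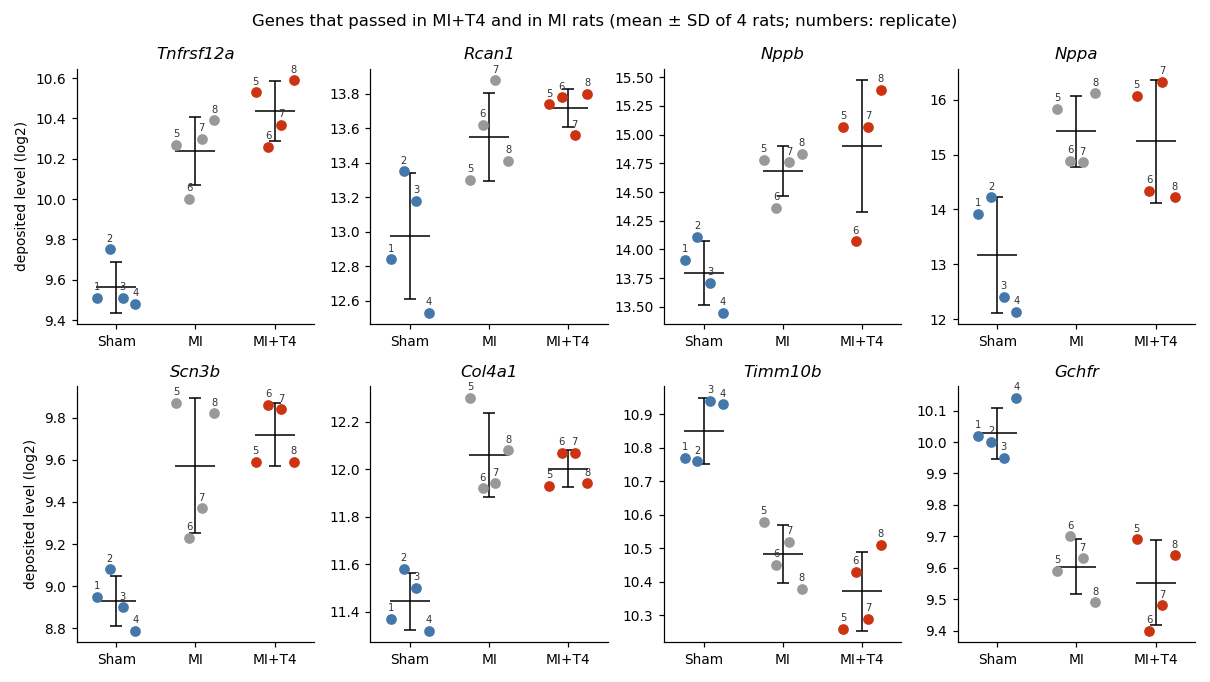
Level (log2) of 8 genes that passed in MI+T4 vs. Sham and in MI vs. Sham; each point is a rat, the number beside it is its replicate number, and the bar and whiskers are the mean and SD of 4 rats. Tnfrsf12a separates the groups without overlap (9.48 to 9.75 in Sham, 10.26 to 10.59 in MI+T4), while for Nppb treated replicate 6 (14.07) lies within the Sham range.

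Fewer matrix genes passed in MI+T4 vs. Sham than in MI vs. Sham, as was the case over all genes (1.00% against 2.60% higher). Of 14 collagens measured, 1 passed in MI+T4 vs. Sham (7.14%) and 7 in MI vs. Sham. Of 30 matrix glycoproteins and elastic fiber genes, 3 and 12 passed, and of 36 crosslinking and turnover genes, 4 and 12. Of 12 proteoglycans, 0 and 3 passed. Whether these lists differ between MI+T4 and MI is addressed only by the direct comparison, in which 0 probes passed.

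Col4a1, a chain of basement membrane collagen IV, was the collagen that passed. It was at 11.37, 11.58, 11.5 and 11.32 in Sham and at 11.93, 12.07, 12.07 and 11.94 in MI+T4. The treated rats lay close together and above Sham, a 1.48-fold rise (log2 0.56, adjusted p = 4.69e-05 and 0.0984 on rat means), and the MI rats rose by 0.62 on the log2 scale. The fibrillar chains were more scattered. Col1a1, the main chain of type I collagen, was at 10.02, 10.05, 10.78 and 10.40 in Sham, at 10.67, 10.34, 11.41 and 9.84 in MI+T4 and at 12.15, 10.50, 10.28 and 11.95 in MI. Treated replicate 8 was below each Sham rat and treated replicate 7 above each, and MI+T4 vs. Sham gave an adjusted p of 0.898. Col3a1, the type III chain, showed the same order among the treated rats, with 12.03, 11.74, 12.55 and 11.30 in MI+T4 (adjusted p = 0.731). Its Sham rats were at 11.33, 11.25, 11.99 and 11.62, so treated replicate 8 lay within the Sham range and replicates 5 and 7 above it.

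The medians of the collagen list, relative to the Sham mean, were 0.32, 0.17, 0.76 and -0.11 in MI+T4 replicates 5 to 8 and 1.00, 0.22, 0.05 and 0.91 in the MI rats. High and low rats were present in both infarcted groups. Without MI+T4 replicate 8 the collagens called numbered 4. The matrix glycoproteins called numbered 12 without the former rat and 0 without MI+T4 replicate 7, and ranged from 1 to 7 without each other rat. Crosslinking genes called numbered 7 without MI+T4 replicate 8, 2 without treated replicate 5 or 7, and 1 without Sham replicate 2. The macrophage list median followed a like order in the treated rats, at 0.23, 0.03, 0.64 and -0.32, and its part in the matrix values was not tested.

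Among the other matrix and fibroblast genes, Tgm2, the tissue transglutaminase that crosslinks matrix proteins, kept its call without each rat. It was at 9.17, 9.45, 9.20 and 9.22 in Sham and at 9.64, 9.55, 9.67 and 9.46 in MI+T4, a 1.25-fold rise by a narrow margin of separation (adjusted p = 0.00363 and 0.256 on rat means). Ccn2, connective tissue growth factor, rose 1.62-fold (adjusted p = 0.0113 and 0.415 on rat means), a call that was lost without Sham replicate 3 or MI+T4 replicate 7. Adamts1, a secreted metalloproteinase, rose 1.38-fold (adjusted p = 0.0103 and 0.337 on rat means, lost without Sham replicate 2 or MI+T4 replicate 5). Of 16 fibroblast markers 3 rose (18.8% against 1.00% of all genes), namely Pi16, Cd248 and Pdgfra (adjusted p on rat means 0.479, 0.476 and 0.363), with 0 called without Sham replicate 1 or MI+T4 replicate 5 or 7. Each of the 3 overlapped between the groups, with treated replicate 8 inside the Sham range. Of the 16, 13 had a mean above Sham and 3 a mean below it, and in 0 did the treated rats all lie above Sham. Pi16, a marker of a fibroblast subset, had 2 probes and both passed.

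**Figure D2:**
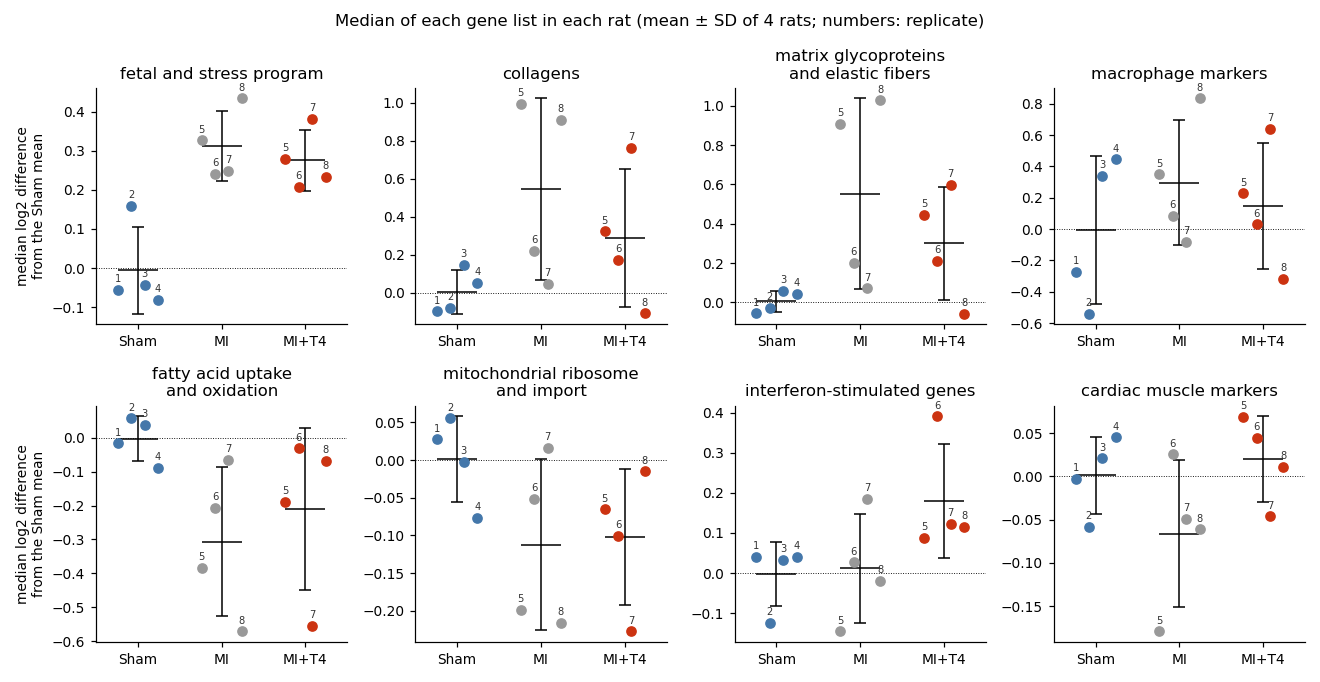
Median over the members of 8 gene lists of the log2 difference from the Sham mean, 1 point per rat, with replicate numbers; the bar and whiskers are the mean and SD of 4 rats. Collagen medians spread from -0.11 to 0.76 among the 4 MI+T4 rats, replicate 8 lowest and replicate 7 highest.

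Other genes outside these groups remained raised and kept the call without each rat. Gsn, gelsolin, which severs actin filaments, was at 15.23, 15.20, 15.08 and 15.35 in Sham and at 15.54, 15.69, 15.74 and 15.48 in MI+T4. All treated rats lay above Sham, a 1.32-fold rise (adjusted p = 0.000246 and 0.139 on rat means), and the log2 difference from Sham was 0.40 in MI+T4 and 0.20 in MI (MI+T4 vs. MI adjusted p = 0.237).

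Qsox1, an enzyme that forms disulfide bonds in secreted proteins, was at 9.96, 9.59, 9.87 and 9.29 in Sham and at 10.89, 10.70, 10.40 and 10.07 in MI+T4. It rose 1.79-fold (adjusted p = 0.000467 and 0.245 on rat means). Uap1, which makes the activated amino sugar used for glycan synthesis, was at 10.75, 10.39, 10.58 and 10.54 in Sham and at 11.43, 10.95, 11.56 and 11.17 in MI+T4. The rise of Uap1 was 1.64-fold (adjusted p = 0.0003 and 0.204 on rat means), and neither gene overlapped between the groups.

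Ackr3 and Ramp2 rose by smaller amounts. Ackr3, the scavenger receptor of the chemokine CXCL12, was at 10.42, 10.28, 10.49 and 10.35 in Sham and at 11.01, 10.74, 10.69 and 10.72 in MI+T4, a 1.32-fold rise (adjusted p = 0.000768 and 0.139 on rat means). Ramp2, the coreceptor that makes the calcitonin-like receptor respond to adrenomedullin, was at 11.97, 11.72, 11.76 and 11.74 in Sham and at 12.25, 12.22, 12.07 and 12.20 in MI+T4 (1.31-fold, adjusted p = 0.000905 and 0.204 on rat means). Both were separated from Sham in each treated rat and were raised by a like amount in the MI rats, with log2 differences of 0.45 for Ackr3 and 0.37 for Ramp2. Of the 14 endothelial markers measured 1 rose (7.14% against 1.00% of all genes), Icam2, which passed only under T4.

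Among 36 calcium handling and ion channel genes, 3 rose (8.33% against 1.00% of all genes) and 3 fell (8.33% against 0.765%), with a median log2 difference of -0.07. Without MI+T4 replicate 7 the falls numbered 1, and without replicate 8 they numbered 5. Scn3b, an auxiliary subunit of the cardiac sodium channel, was at 8.95, 9.08, 8.90 and 8.79 in Sham and at 9.59, 9.86, 9.84 and 9.59 in MI+T4. The groups lay well apart, and the rise was 1.73-fold (log2 0.79, 95% interval 0.50 to 1.08, adjusted p = 9.02e-05 and 0.139 on rat means). Kcne1, the beta subunit of the slow delayed rectifier, was at 7.78, 7.79, 7.70 and 7.54 in Sham, near the median of all probes, and at 7.97, 8.26, 7.95 and 8.24 in MI+T4 (1.33-fold, adjusted p = 0.00202 and 0.204 on rat means). Cacna1g, a T-type calcium channel, rose 1.61-fold (adjusted p = 0.0173 and 0.433 on rat means) and lost the call without Sham replicate 3 or 4 or MI+T4 replicate 6 or 7.

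Kcnip2, the subunit that brings the transient outward potassium channel to the membrane, fell under T4. It was at 12.68, 13.19, 13.17 and 13.06 in Sham, at 12.75, 12.23, 12.40 and 12.65 in MI+T4 and at 12.87, 12.76, 12.87 and 12.82 in MI. Sham replicate 1 lay below treated replicate 5, so the groups overlapped, while the other Sham rats lay above all treated rats. The level in MI+T4 was 0.699 times that in Sham (log2 -0.52, adjusted p = 0.00153 and 0.281 on rat means). In MI vs. Sham Kcnip2 did not pass (log2 -0.19, adjusted p = 0.282), nor did it pass in MI+T4 vs. MI (log2 -0.32, adjusted p = 0.206). Abcc9, the sulfonylurea receptor of the ATP-sensitive potassium channel in heart and vessel, fell to 0.800 times Sham (adjusted p = 0.00725 and 0.322 on rat means, lost without MI+T4 replicate 7) and was close to Sham in MI (log2 -0.07). Scn4b, another sodium channel subunit, fell to 0.734 times Sham (adjusted p = 0.019 and 0.427 on rat means) and lost the call without Sham replicate 2 or 3 or MI+T4 replicate 5 or 7.

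The falls that remained under T4 included several muscle and metabolic genes. Lmod3, leiomodin-3, which nucleates the actin thin filaments of striated muscle, was at 10.37, 10.41, 10.34 and 10.45 in Sham and at 9.50, 9.48, 9.24 and 10.26 in MI+T4. Treated replicate 8 lay just under the Sham rats and the other 3 far below, at 0.59 times Sham on average (log2 -0.77, adjusted p = 0.000835 and 0.274 on rat means). Impa2, an inositol monophosphatase, was at 11.68, 11.70, 11.70 and 11.70 in Sham and at 11.03, 11.08, 10.80 and 11.42 in MI+T4. Its Sham rats hardly varied, and the treated mean was 0.655 times theirs (adjusted p = 0.00363 and 0.317 on rat means).

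Gchfr, the feedback regulator of GTP cyclohydrolase, the enzyme that starts tetrahydrobiopterin synthesis, was at 10.02, 10, 9.95 and 10.14 in Sham and at 9.69, 9.40, 9.48 and 9.64 in MI+T4. The level was 0.719 times Sham (adjusted p = 0.000139 and 0.0984 on rat means). Fads6, a member of the fatty acid desaturase family, was at 8.85, 8.91, 8.65 and 8.70 in Sham and at 8.22, 8.4, 8.19 and 8.35 in MI+T4, 0.714 times Sham (adjusted p = 0.000365 and 0.139 on rat means). Neither gene overlapped between Sham and MI+T4, and both also fell in MI. Pgp, phosphoglycolate phosphatase, fell to 0.718 times Sham (adjusted p = 0.000986 and 0.245 on rat means), and Atp6ap1l, a relative of a proton pump accessory subunit, fell to 0.718 times Sham (adjusted p = 0.00202 and 0.263 on rat means). Fam81a fell to 0.713 times Sham by its brighter probe (adjusted p = 0.00257 and 0.245 on rat means), while its second, dimmer probe showed a log2 difference of 0.03 (adjusted p = 0.95).

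Few mitochondrial genes passed, though most had a mean slightly below Sham. Of 78 mitochondrial ribosome or import genes, 6 fell (7.69% against 0.765% of all genes) and 0 rose. A mean below Sham was found in 70, and the median log2 difference was -0.11, or -0.06 without MI+T4 replicate 7. By rat the list median was -0.08 in Sham replicate 4, below treated replicates 5 (-0.07) and 8 (-0.01). The count was 1 without MI+T4 replicate 7, 2 without Sham replicate 2, and 3 without Sham replicate 1 or MI+T4 replicate 6. Timm10b, a small chaperone of the inner-membrane import system, kept its call in each case. It was at 10.77, 10.76, 10.94 and 10.93 in Sham and at 10.26, 10.43, 10.29 and 10.51 in MI+T4. The treated mean was 0.717 times Sham without overlap (log2 -0.48, adjusted p = 4.69e-05 and 0.0984 on rat means). Timm23, the channel of the inner-membrane translocase, fell to 0.852 times Sham (adjusted p = 0.01 and 0.301 on rat means, lost without Sham replicate 2 or MI+T4 replicate 7).

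Of 59 oxidative phosphorylation genes 2 fell (3.39% against 0.765% of all genes), Atp5f1c of the ATP synthase and Ndufv3 of complex I, at 0.845 and 0.870 times Sham (adjusted p on rat means 0.306 and 0.377). The first lost its call without Sham replicate 1, 2 or 3 or MI+T4 replicate 5 or 7, and the second without Sham replicate 2 or 3 or MI+T4 replicate 5 or 7. Of 35 genes of fatty acid uptake and oxidation, 0 passed in MI+T4 vs. Sham, where 0.765% of all genes fell. In MI vs. Sham, where 2.41% of all genes fell, 14 did so. Whether the list differs between MI+T4 and MI is addressed only by the direct comparison, in which 0 probes passed. Although 0 passed against Sham, 32 of the 35 had a mean below Sham in MI+T4, with a median of -0.21. By rat the list medians were -0.19, -0.03, -0.55 and -0.07 in replicates 5 to 8. Replicate 7 thus stood apart, and without it the median was -0.09. Without MI+T4 replicate 8, 5 of the 35 fell. Klf15, a transcription factor of amino acid and lipid metabolism in muscle, fell to 0.739 times Sham (adjusted p = 0.0156 and 0.409 on rat means, lost without Sham replicate 1 or MI+T4 replicate 6 or 7).

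In 118 of the 283 probes MI+T4 passed against Sham and MI did not. Of these 71 were higher and 47 lower. Their median log2 difference from Sham was 0.30 for the higher probes in MI+T4 and 0.15 in MI, and -0.28 and -0.15 for the lower ones. That MI lay nearer to Sham follows in part from how the 118 were chosen. The class numbered 36 without MI+T4 replicate 7, 60 to 71 without Sham replicate 1, 2 or 3 or MI+T4 replicate 6, and 230 to 271 without MI replicate 5 or 8 or MI+T4 replicate 8. The direct comparison of MI+T4 with MI called 0 probes in either fit (0% of 22523), with 1228 at an unadjusted p under 0.05 on rat means and 1670 with both arrays. Among the 118 the smallest adjusted p in MI+T4 vs. MI was 0.889 on rat means and 0.136 with both arrays. With both arrays the count of 0 became 74 when the 3 comparisons were adjusted together, and 76, 19, 14, 2 or 5 without MI replicate 7, MI replicate 6 or MI+T4 replicate 5, 7 or 8. By these fits no gene is shown to differ between treated and untreated infarcted hearts, and the genes that follow are those that passed against Sham only under T4.

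Of the interferon-stimulated genes that rose in MI+T4 vs. Sham, Ifitm3 also rose in MI and the others passed only under T4. Interferons act through STAT and IRF9 to induce antiviral genes that share a promoter element. Of 35 measured members, 7 rose in MI+T4 vs. Sham (20% against 1.00% of all genes), 0 fell, and 1 rose in MI vs. Sham. In 9 the MI+T4 rats all lay above Sham (against 2.71% of genes), and in 1 all lay below (against 2.77%). The list median was 0.15 in MI+T4 and -0.02 in MI, and 33 of 35 members had a mean above Sham. This list too was chosen with earlier results of these data known, so its share is a description. The calls depended on single rats: 0 were called without Sham replicate 2, 4 without Sham replicate 4, and 1 or 2 without treated replicate 6 or 7, while 13 were called without MI replicate 5. By rat the list median was 0.09, 0.39, 0.12 and 0.11 in MI+T4 replicates 5 to 8 and -0.12 in Sham replicate 2, so treated replicate 6 was the highest and Sham replicate 2 the lowest of their groups. In MI replicates 5 to 8 it was -0.15, 0.03, 0.18 and -0.02, so MI replicate 7 lay above treated replicates 5, 7 and 8.

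Oasl2, an oligoadenylate synthetase-like protein, was at 9.44, 8.99, 9.33 and 9.51 in Sham, at 9.61, 10.21, 9.90 and 9.80 in MI+T4 and at 8.97, 9.41, 9.68 and 9.43 in MI. It rose 1.47-fold without overlap (adjusted p = 0.00865 and 0.39 on rat means, MI+T4 vs. MI 0.136), and the call was lost without Sham replicate 2 (0.0577) or MI+T4 replicate 6 (0.0508). Dhx58, the RNA sensor LGP2, was at 8.21, 8.08, 8.26 and 8.27 in Sham and at 8.53, 8.71, 8.48 and 8.41 in MI+T4. Its rise of 1.25-fold (adjusted p = 0.00857 and 0.281 on rat means) was lost without the same rats.

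Ifi27l2b, a small interferon-inducible membrane protein, had the largest difference of the list. It was at 12.41, 11.89, 12.99 and 12.92 in Sham and at 13.04, 14.00, 13.81 and 13.14 in MI+T4, where treated replicate 5 lay just above the highest Sham rat. The rise was 1.92-fold (adjusted p = 0.0326 and 0.53 on rat means), lost without Sham replicate 1 or 2 or MI+T4 replicate 6 or 7. Ifi27 rose 1.27-fold (adjusted p = 0.0196 and 0.415 on rat means, lost without Sham replicate 2, 3 or 4 or MI+T4 replicate 6 or 7). Ifi44, of unknown biochemical role, was at 8.95, 8.77, 8.87 and 8.73 in Sham and at 9.02, 9.28, 9.08 and 9.22 in MI+T4, a 1.25-fold rise (adjusted p = 0.0311 and 0.384 on rat means). Irf9, the DNA-binding subunit of the interferon-activated factor, rose 1.23-fold (adjusted p = 0.0418 and 0.508 on rat means). Neither Ifi44 nor Irf9 passed without Sham replicate 2, where 0 members of the list did, and their dependence on the other rats is not given. Ifitm3, an antiviral membrane protein, rose 1.44-fold in MI+T4 (adjusted p = 0.0141 and 0.41 on rat means, lost without Sham replicate 2 or MI+T4 replicate 5 or 7) and was the member that also rose in MI.

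Mx1, an antiviral GTPase, was higher on average but overlapped, at 9.82, 8.98, 10.07 and 9.53 in Sham and 9.74, 11.16, 10.34 and 10.13 in MI+T4 (1.67-fold, adjusted p = 0.0819). Irf7, the regulator of interferon genes, was at 9.90, 9.61, 10.35 and 10.20 in Sham and 10.11, 11.25, 10.66 and 10.44 in MI+T4 (1.52-fold, adjusted p = 0.127). In both, treated replicate 6 was the highest rat. Isg15 and Ifit1, commonly among the strongest interferon-induced genes, had levels below the median of all probes. Ube2l6, the enzyme that attaches ISG15 to proteins and not a member of the list, kept its call without each rat. It was at 9.24, 9.10, 9.25 and 9.32 in Sham and at 9.52, 9.92, 9.70 and 9.61 in MI+T4, a 1.38-fold rise without overlap (adjusted p = 0.00337 and 0.274 on rat means). Ly6e, an interferon-inducible surface protein also outside the list, was at 11.55, 11.38, 11.76 and 11.65 in Sham and at 12.03, 12.27, 12.16 and 11.84 in MI+T4 (1.40-fold, adjusted p = 0.000866 and 0.204 on rat means) and likewise kept its call. Ube2l6 and Ly6e were named for the size of their rise. Ubd, a ubiquitin-like gene also outside the list, fell to 0.515 times Sham and is given further on.

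**Figure D3:**
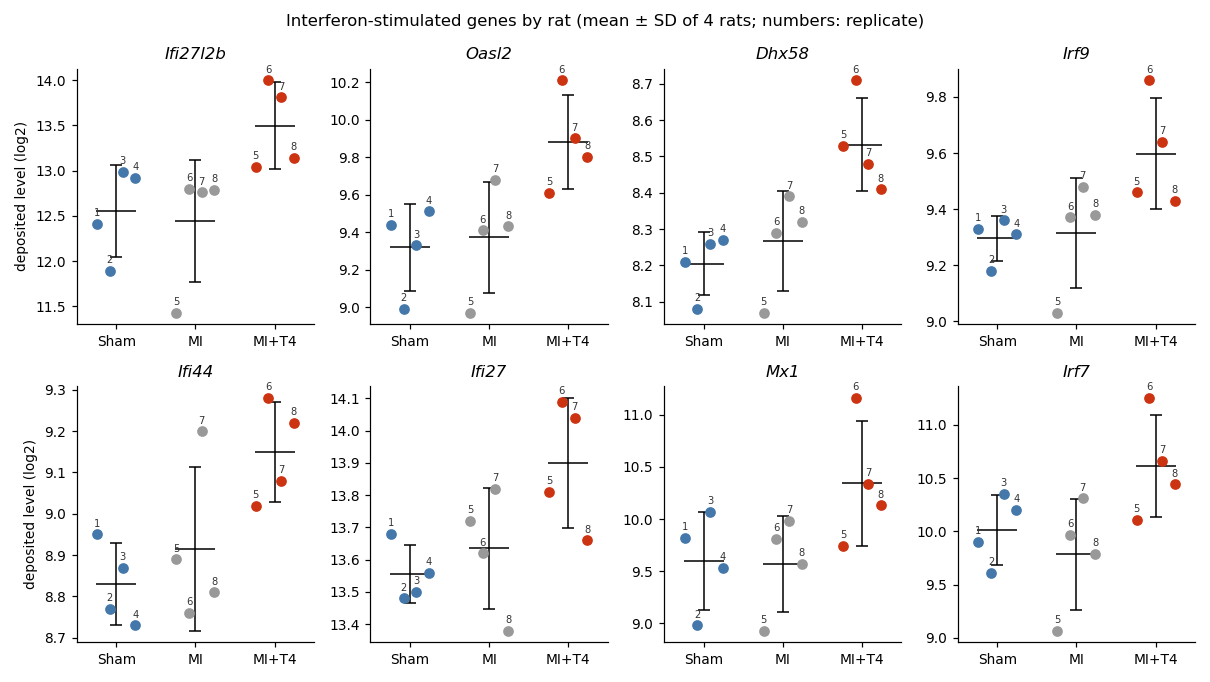
Level (log2) of 8 interferon-stimulated genes in each rat, with replicate numbers, and the mean and SD of 4 rats. Oasl2 ranges from 8.99 to 9.51 in Sham and from 9.61 to 10.21 in MI+T4, with treated replicate 6 highest; Mx1 and Irf7 overlap between the groups.

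The promoters of 3 called members are shown because these genes passed under T4 and their promoters hold the repeat that interferon-regulated factors are known to read. The 250 bases before the start site are given from RefSeq (build GRCr8) in the direction of the gene, with the letters of the motif in capitals. The motif searched was GAAANNGAAA on both strands, which reads TTTCNNTTTC on the other strand, with overlapping matches each counted.
Ifi27 (chr6:128355062-128355311, plus strand): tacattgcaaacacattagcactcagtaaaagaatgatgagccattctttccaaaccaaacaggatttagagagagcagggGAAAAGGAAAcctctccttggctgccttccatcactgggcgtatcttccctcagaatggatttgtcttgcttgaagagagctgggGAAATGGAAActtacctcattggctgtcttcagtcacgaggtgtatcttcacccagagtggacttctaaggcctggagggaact
Ifi44 (chr2:243303841-243304090, minus strand): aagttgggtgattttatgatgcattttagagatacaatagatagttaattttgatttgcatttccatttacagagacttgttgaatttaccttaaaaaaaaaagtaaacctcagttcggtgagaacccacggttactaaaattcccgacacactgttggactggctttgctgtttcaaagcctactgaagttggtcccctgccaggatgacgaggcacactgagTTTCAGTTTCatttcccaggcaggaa
Oasl2 (chr12:47383186-47383435, minus strand): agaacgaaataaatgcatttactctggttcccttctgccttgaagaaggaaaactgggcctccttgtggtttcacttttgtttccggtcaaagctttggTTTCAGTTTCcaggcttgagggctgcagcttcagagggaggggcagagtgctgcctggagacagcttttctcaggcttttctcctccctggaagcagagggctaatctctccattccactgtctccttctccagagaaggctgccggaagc

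The match in Ifi44 began 26 bases before the start site, that in Oasl2 151 bases before it, and Ifi27 held 2 matches, 169 and 84 bases before it. A match was present in 1140 of 33469 promoters of the same length (3.41%) and in 16 of the 24 promoters found for the list (66.7%). Of the 7 called members 5 had an entry, and 4 of the 5 held a match: the 3 shown and Ifitm3. A match is a description of the letters and not of binding in these hearts.

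Other genes that passed only under T4 and kept the call without each rat were of varied function. Rec114, a gene of meiotic recombination whose role in heart is not known, was at 8.56, 8.34, 8.58 and 8.31 in Sham, at 8.83, 9.21, 9.15 and 9.07 in MI+T4 and at 8.48, 8.99, 8.74 and 8.43 in MI. The treated rats all lay above Sham, 1.54-fold on average (adjusted p = 0.000467 and 0.204 on rat means), and MI+T4 vs. MI gave an adjusted p of 0.136. Slc39a2, a zinc importer, was at 9.52, 9.52, 9.13 and 9.21 in Sham and at 9.76, 9.71, 10.02 and 10.06 in MI+T4 (1.46-fold, adjusted p = 0.00184 and 0.245 on rat means). Its MI value was just past the threshold (adjusted p = 0.0513), as was that of Tppp3, a tubulin-binding protein (1.43-fold in MI+T4, adjusted p = 0.00418 and 0.306 on rat means; MI 0.0557).

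Nfkbib, the inhibitor IkappaB-beta that holds NF-kappaB in the cytoplasm, was at 11.02, 11.15, 11.21 and 11.18 in Sham and at 10.82, 10.86, 10.69 and 10.85 in MI+T4. The treated rats all lay below Sham, at 0.793 times its level (adjusted p = 0.00252 and 0.212 on rat means; MI 0.17). Icam2, an adhesion molecule of endothelium, was at 11.27, 11.24, 11.17 and 11.26 in Sham and at 11.62, 11.53, 11.41 and 11.38 in MI+T4, a 1.19-fold rise without overlap (adjusted p = 0.00418 and 0.212 on rat means; MI 0.0961). For each of these genes the MI mean lay between those of Sham and MI+T4.

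Other falls in this class lost the call when single rats were left out. Ubd, the ubiquitin-like protein FAT10, was at 8.95, 8.62, 9.89 and 9.19 in Sham and at 8.51, 7.97, 8.36 and 7.98 in MI+T4, 0.515 times Sham (adjusted p = 0.0313 and 0.525 on rat means). RT1-DMb, a chain of the class II peptide loader, was at 11.27, 11.07, 11.36 and 11.55 in Sham and at 10.41, 10.21, 11.49 and 10.41 in MI+T4, 0.623 times Sham (adjusted p = 0.0237 and 0.479 on rat means). Treated replicate 7 lay among the Sham rats for RT1-DMb, the other treated rats well below. Each of the pair lost its call without any of 6 rats, with adjusted p up to 0.17 for Ubd and 0.121 for RT1-DMb. Idh2, the mitochondrial isocitrate dehydrogenase, fell to 0.809 times Sham (adjusted p = 0.0428 and 0.506 on rat means, lost without any of 8 rats), and its second, dim probe showed no such difference (log2 -0.01). Plag1, Psmg2 and Mrpl52, a zinc finger factor, a proteasome assembly chaperone and a mitochondrial ribosomal protein, fell to 0.813, 0.831 and 0.855 times Sham (adjusted p on rat means 0.368, 0.368 and 0.274) and each lost the call without at least 3 rats.

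Few thyroid hormone targets, transporters and receptors passed in MI+T4 vs. Sham. Of 37 measured members 2 rose (5.41% against 1.00% of all genes), Ucp2 and Kcne1, and 1 fell (2.70% against 0.765%), Kcnip2. Ucp2, a mitochondrial carrier, was at 12.80, 12.52, 12.78 and 12.88 in Sham and at 13.49, 13.26, 12.92 and 13.14 in MI+T4, a 1.37-fold rise (adjusted p = 0.00216 and 0.299 on rat means). The MI rats were as high, with a log2 difference of 0.48, and Kcne1 also rose in MI. Of the 37, the 95% interval of the log2 difference from rat means held 0 in 30 and lay within 1.5-fold in 29. The 29 include genes near either end of the scale, where differences may be compressed, so the intervals do not bound the change in transcript for those genes.

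Myh6, the fast alpha myosin heavy chain that the hormone is known to induce, was at 16.11, 16.03, 16.08 and 16.19 in Sham and at 16.18, 16.15, 16.21 and 16.12 in MI+T4 (log2 0.06, 95% interval -0.04 to 0.16). Myh7, the slow beta chain that the hormone is known to repress, differed by -0.0042 on the log2 scale (interval -0.17 to 0.16). Atp2a2, the calcium pump SERCA2, differed by 0.12 (interval -0.02 to 0.25). These genes were at 15.95 to 16.38 in the Sham and MI+T4 rats, close to the highest value on any array (16.47), where differences may be compressed.

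Other targets lay lower on the scale. Kcnd2, the pore of the transient outward channel, differed by -0.22 (interval -0.38 to -0.07, adjusted p = 0.0718), and Kcnd3 by -0.19 (interval -0.41 to 0.02). The receptor genes Thra and Thrb differed by -0.09 and -0.13, with intervals that held 0. Rxrg, the retinoid partner receptor, differed by -0.38 (interval -0.70 to -0.06, adjusted p = 0.0766), and the transporter Slc16a10 by -0.19 (interval -0.30 to -0.07, adjusted p = 0.0811), neither passing. Adcy5, Thrsp, Ucp3 and Timp1 had the intervals least able to show a difference, for example -0.28 to 1.19 for Adcy5, an adenylyl cyclase. Dio1, Dio3, Slco1c1, Hcn4 and Adrb1 lay below the median of all probes.

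**Figure D4:**
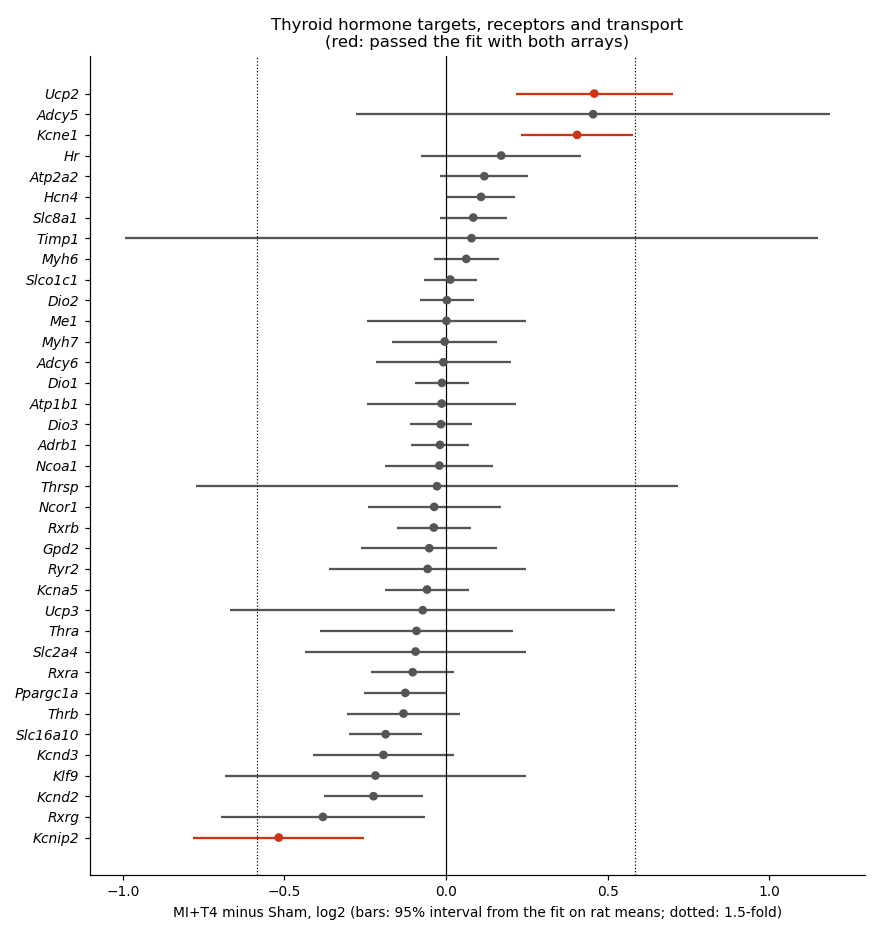
Difference MI+T4 minus Sham (log2) with its 95% interval from rat means for 37 genes of thyroid hormone action; dotted lines mark 1.5-fold. Of the 37, 29 intervals lie within the dotted lines, and Kcnip2, Ucp2 and Kcne1 are the members that passed.

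The brighter globin transcripts were higher in the infarcted hearts with and without T4. Of 8 erythroid genes measured 3 rose (37.5% against 1.00% of all genes), all globins. Hbb-b1 was at 13.26, 13.25, 12.92 and 13.03 in Sham, at 13.86, 13.96, 13.28 and 13.69 in MI+T4 and at 13.63, 13.54, 13.36 and 14.03 in MI. It rose 1.5-fold (adjusted p = 0.00501 and 0.363 on rat means). Hbb and Hba-a1 rose 1.43-fold and 1.41-fold (adjusted p on rat means 0.427 and 0.495), each without overlap, though their calls were lost without Sham replicate 3 or 4 or MI+T4 replicate 5 or 6, and that of Hba-a1 also without Sham replicate 2. Hba-a2, another globin, lay below the median of all probes and did not rise (0.926 times Sham, adjusted p = 0.504 with both arrays). Of the 8 erythroid genes, 5 had a mean above Sham and 3 a mean below it. Globin genes are near-identical copies whose probes may share transcripts.

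Several gene groups had 0 members called in MI+T4 vs. Sham. They were the macrophage, lymphocyte and neutrophil, nerve, adipocyte and mesothelial markers, the circadian clock genes and the 56 cytosolic ribosome genes, beside the cardiac muscle markers, proteoglycans and fatty acid genes given above. For cell division genes 1 of 37 rose (2.70% against 1.00% of all genes), 13 rose in MI vs. Sham (where 2.60% of all genes did), and the 1 became 9 without MI+T4 replicate 8. For heat shock and unfolded protein genes 2 of 42 rose (4.76%), Hspb1 and Hspb3, small heat shock proteins of muscle, a count of 0 without Sham replicate 1 or 4 or MI+T4 replicate 7. Hspb1 was at 13.65, 13.76, 13.96 and 13.79 in Sham and at 14.23, 13.85, 14.13 and 14.17 in MI+T4 (1.24-fold, adjusted p = 0.0345 and 0.449 on rat means) and lost the call without any of 6 rats. Of 45 antioxidant genes 3 rose (6.67% against 1.00% of all genes) and 2 fell (4.44% against 0.765%), and 0 did so in either direction without MI+T4 replicate 7. Gpx3, the plasma glutathione peroxidase, was 1.78-fold higher (adjusted p = 0.0196 and 0.466 on rat means, lost without any of 5 rats). Maoa, monoamine oxidase A, was 1.55-fold higher without overlap (adjusted p = 0.0125 and 0.427 on rat means, lost without Sham replicate 1 or 4 or MI+T4 replicate 7).

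**Figure D5:**
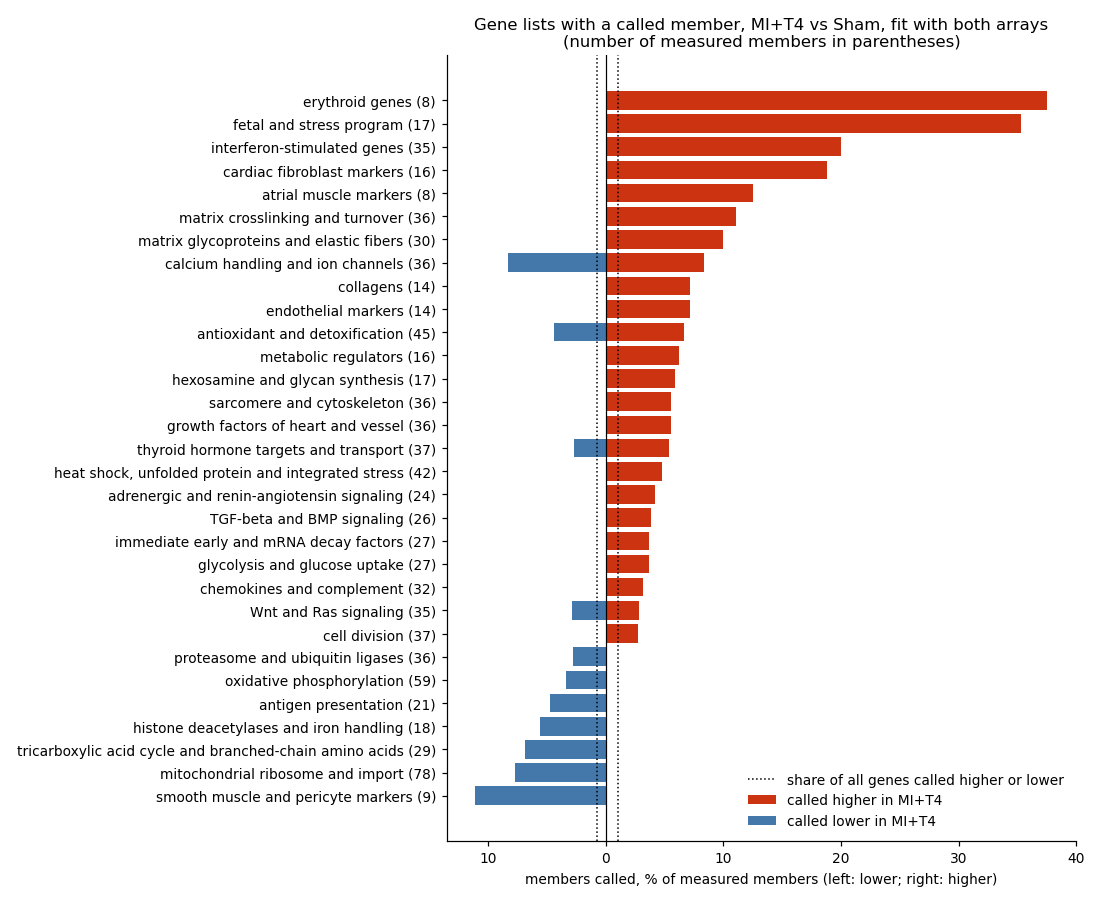
Share (%) of the measured members of each gene list called higher or lower in MI+T4 vs. Sham by the fit with both arrays; lines mark the shares over all genes, 1.00% higher and 0.765% lower. The erythroid (37.5%), stress (35.3%) and interferon (20%) lists show the largest shares higher. The lists were chosen with earlier results of these data known, so the shares are a description.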

How the data were processed

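RNA from 12 rats was hybridised to Illumina RatRef-12 BeadChips, 2 technical arrays per rat. The authors transformed the intensities with a variance-stabilizing transformation and applied robust spline normalization, and deposited the result as log2 values for 22523 probes. Such values compress differences at the lowest and highest levels, and arrays were scaled to each other, so a shift of all genes would not be seen. A table of non-normalized signals with 48 columns that could not be tied to a sample was not used, so no detection filter was applied. GEO's platform annotation gave 1 symbol for 13793 probes and none for 8730. Where probes share a gene, the brightest over the 12 rats stands for it. List genes without a probe under their symbol were matched through synonyms, by which Dbi stood for titin in the cardiac muscle and sarcomere lists.

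The 2 arrays of a rat were averaged, and MI+T4, MI and Sham means were fitted together with limma 3.58.1 (lmFit, eBayes; R 4.3.3), with Benjamini-Hochberg adjustment over all probes and a threshold of 0.05. A second fit used both arrays with duplicateCorrelation (statmod 1.5.0) and the rat as a block. Separate animals are the replicates. Both fits were tested on simulated data with known changes. Both recovered nearly all of them, but the fit with both arrays made many more false calls than its threshold allows, which the fit on rat means did not. The planted changes were larger than the median difference of the called probes and lay on randomly drawn probes. The power of either fit for changes like those called here was thus not tested. Folds are 2 to the power of the log2 difference. Alternatives were a fit of the compared groups alone, trended and robust eBayes, each technical array alone, probes above the median level, the 3 comparisons adjusted together, a 1.5-fold limit, the technical replicate number as a term, each rat left out, and for MI+T4 vs. MI a block on the replicate number.

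Genes were named by rank: calls on rat means; the 12 largest rises and falls without overlap; 8 of each that passed only under T4, and 8 of each that also passed in MI; the 6 of the T4-only class with the smallest p against MI; up to 4 called members of each of 41 gene lists; and all stress, thyroid and cardiac muscle members. Spp1, Col1a1, Col3a1, Myl7, Mybphl, Mx1, Irf7, Ifi44 and Irf9 were added after their values were seen. The lists and rules were chosen with earlier results of these data known.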

Additional observations from a re-analysis of the deposited data

Results flagged for a closer look

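In a group of 4 rats, a highest or lowest rat was marked when its gap to the nearest other rat took up more of the group's range than Dixon's 95% critical value for 4 samples. Of 447 groups (149 named genes in 3 groups) 27 were marked, and chance marks about 1 in 20 groups. All values are levels on the log2 scale.

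Among Sham rats, replicate 1 was the highest for Adamts1 (10.26), Gpd2 (10.41) and Kcna5 (8.09) and the lowest for Hcn4 (7.38). Sham replicate 2 was the highest for Tnfrsf12a (9.75), Tgm2 (9.45) and Slc43a3 (8.45), so for Tnfrsf12a and Tgm2 it was the Sham rat nearest to the treated ones. Sham replicate 3 was the highest for Ndufv3 (9.22) and the lowest for Atp1b1 (13.02) and Ankrd2 (7.56).

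Among MI+T4 rats, replicate 5 was the highest for Ackr3 (11.01) and Dio1 (7.66) and the lowest for Gpx1 (14.57). Replicate 7 was the highest for RT1-DMb (11.49, with the other treated rats at 10.21 to 10.41) and the lowest for Yars2 (9.88). Replicate 8 was the highest for Ryr2 (10) and Adcy6 (8.28) and the lowest for Myl3 (16.15), Mb (15.86) and Smpdl3a (12.11).

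Among MI rats, replicate 5 was the lowest for Ifi27l2b (11.43, with the others at 12.76 to 12.80) and the highest for Kcnd3 (8.51). Replicate 6 was the lowest for Nppb (14.36) and Hspb1 (13.60), replicate 7 the lowest for Slc39a2 (9.40) and Hspb3 (11.99), and replicate 8 the highest for Icam2 (11.44).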

How the results depend on the processing

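On rat means the 1 call in MI+T4 vs. Sham became 6 when only the compared groups were fitted, 5 with trended and robust eBayes, and 0 to 4 when 1 rat was left out. With both arrays the 283 calls became 440 with only the compared groups, 173 among probes above the median level, 33 with a 1.5-fold limit, 1 on either technical array alone, 1 on rat means, and 97 to 585 when 1 rat was left out, and were 234 with trended and robust eBayes, 298 with the 3 comparisons adjusted together and 259 with the technical replicate number as a term. The 165 probes called in the same direction in MI were 108 above the median level and 61 to 314 without 1 rat, and the 118 called only under T4 were 65 and 36 to 271. For MI+T4 vs. MI with both arrays the 0 calls became 1 with trended and robust eBayes, 74 with the comparisons adjusted together and 0 to 76 without 1 rat, and on rat means the count was 0 without each rat in turn and with the replicate block. For these changes the cause was not tested beyond fewer samples or probes. Among the named genes, 2450 refits with both arrays kept direction and side of the threshold, 657 lost the call, 14 gained it and 0 reversed; on rat means these numbers were 2805, 5, 13 and 0.

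MI and MI+T4 rats share the replicate numbers 5 to 8 but are different animals, and Sham shares none with MI+T4. With the replicate number as a replicate block, MI+T4 vs. MI gave 0 calls, with 845 probes at an unadjusted p under 0.05 against 1054 without the block. Same-numbered rats did not deviate together (r = 0.11, 0.25, -0.53 and -0.48 for numbers 5 to 8), and 1 rat correlated best with its own number, so they were not treated as pairs.

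The limits are few animals, compressed values at both ends of the scale, and unequal rats: the count of calls with both arrays was 97 without MI+T4 replicate 7 and 585 without replicate 8.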

Other observations

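RT1-A2, a class I histocompatibility gene, fell into low and high levels with nothing between. It was at 7.74, 7.83 and 7.76 in Sham replicates 1 to 3 and at 11.21 in replicate 4, and at 10.50, 11, 7.84 and 11.08 in MI+T4 replicates 5 to 8, while the MI rats were at 10.56 to 11.5. MI+T4 vs. Sham did not pass (log2 1.47, adjusted p = 0.264 with both arrays). Lgals3, galectin-3 of macrophages, was at 11.13 and 11.44 in Sham replicates 1 and 2, at 12.86 and 14.03 in replicates 3 and 4, and at 12.05, 11.62, 12.49 and 11.56 in MI+T4, the same division of the Sham rats as for Spp1 and, in the opposite sense, for Myl7 and Nppa. These genes were picked after their values were seen, and no explanation was tested.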
